A study of Homo sapiens with 4 samples.

Results

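Untreated MDA-MB-231 and untreated MDA-MB-435 cells were compared by the RNA that each line held before any compound was added. MDA-MB-231 is an established human breast cancer line and MDA-MB-435 an established human line that the labels and the study call melanoma. Each untreated line was sequenced once, as poly(A) RNA of 1 culture, and the 2 other libraries of the study hold the same lines after 10 µM of the DOCK inhibitor CPYPP for 6 h. All cells are labelled WT and, by the study's methods, both lines grew in DMEM/F12 medium with fetal bovine serum, although the culture and treatment descriptions given with every sample name MDA-MB-435. The comparison takes the 18269 of 61806 listed genes with a count of 10 or more in either untreated library. With 1 library per line there was no replicate spread, so no test was possible, and line, culture and library preparation cannot be told apart. A fold is the ratio of counts after TMM scaling (a scaling factor per library from genes that differ little). The interval beside it is an exact 95% interval for counting error alone, since 1 library per line gives no other spread. The reads carried no molecular identifiers, so copies of 1 molecule count as separate reads in it. A fold against a library with 0 counts was computed against 3 counts and is given as "at least". These words name that convention and not the lower end of the counting interval, which lay lower. For PRDX1, for example, the fold was 3112 and the lower end 2530. FPKM values are counts scaled for exon length and library size.

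The libraries were of near-equal depth, with 22359735 counts in untreated MDA-MB-231 and 22663954 in untreated MDA-MB-435, so that 3 counts stood for 0.138 and 0.129 CPM. The 10 most abundant genes held 6.09% and 6.10% of the counts, and mitochondrially encoded genes 5.34% and 4.73%. Over all genes compared the median log2 fold (MDA-MB-231 over MDA-MB-435) was -0.01. Of a list of 15 markers of leukocytes, endothelium, fibroblasts and red cells, 5 reached 10 counts. HBB and DCN were at 0 in both lines, and the highest of the 15, COL1A1, had 183 counts in MDA-MB-231 and 47 counts in MDA-MB-435. The CPYPP libraries are used below only as a second library of each line under another treatment, not as replicates.

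A cell line keeps part of the expression program of the tissue it came from. Melanocytes arise from the neural crest, where the transcription factors SOX10 and PAX3 switch on MITF, and MITF in turn drives the enzymes of pigment synthesis. Breast epithelium is held together by E-cadherin (CDH1) and desmosomes and carries keratin filaments, and carcinoma cells that have shifted towards a mesenchymal state hold more vimentin and less E-cadherin. Chaperones fold proteins, and the thioredoxin and glutathione systems keep thiols reduced. These systems were at the centre of the study, which asked how the lines respond to proteostatic and redox stress, and their levels before treatment are given here.

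Counts were more than 2-fold higher in MDA-MB-231 for 3996 genes (21.9% of those compared). For 4292 genes (23.5%) MDA-MB-435 was higher by that much, while 9981 (54.6%) lay within 2-fold. These shares are the ones to set beside the counts of listed genes below. Differences over 10-fold numbered 1108 (6.06%) in favour of MDA-MB-231 and 826 (4.52%) in favour of MDA-MB-435. The median fold in either direction was 1.85. Among the 6134 genes with at least 1000 counts in the higher library, 28% differed by more than 2-fold. That share is the one to set beside lists of abundant genes. Of all genes compared, 13879 genes reached 10 counts in both lines, 2071 in MDA-MB-231 alone and 2319 in MDA-MB-435 alone. A gene is called on in 1 line only where it had 100 counts or more in that line and 3 or fewer in the other, and 646 genes (3.54%) were. MDA-MB-231 held 409 of them (2.24%), of which 362 were protein-coding (2.66% of the protein-coding genes compared). MDA-MB-435 held 237 (1.3%), of which 171 were protein-coding (1.26%). Of the 1956 genes with over 4-fold differences and at least 100 counts, 1952 kept their direction between the 2 CPYPP libraries.

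**Figure D1:**
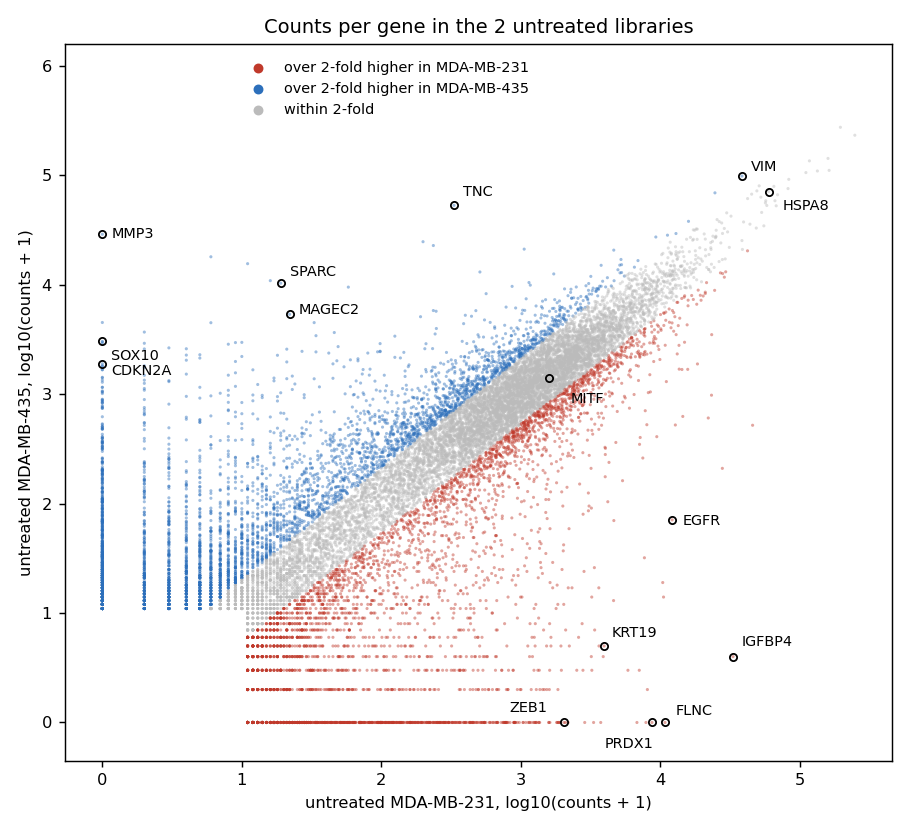
Counts of each of the genes compared in untreated MDA-MB-231 (horizontal axis) and untreated MDA-MB-435 (vertical axis), both as log10(counts + 1), 1 point per gene. Red and blue points differ by more than 2-fold, grey points do not. IGFBP4, FLNC and PRDX1 lie along the lower edge and MMP3, SOX10 and CDKN2A along the left edge, while MITF and HSPA8 lie in the grey band.

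The most abundant gene on in MDA-MB-231 only was IGFBP4, a secreted binder of insulin-like growth factors, with 33210 counts against 3. FLNC, the actin crosslinker filamin C, had 10806 against 0 and was at least 3861-fold higher. PRDX1, a peroxiredoxin that breaks down hydrogen peroxide, had 8711 against 0 and was at least 3112-fold higher. None of the 3 was near the 3-count limit in the higher library, and in the CPYPP library of MDA-MB-435 they had 1, 2 and 0 counts. EDIL3, an integrin ligand of the matrix, had 8076 counts against 1. CYP1B1, a cytochrome P450 of steroid and xenobiotic metabolism, had 7887 against 0. Its count in the CPYPP library of MDA-MB-231 was 525, so the gene was on in both MDA-MB-231 libraries at very different levels. F2RL1, a protease-activated receptor, had 7063 against 2. EFEMP1, the matrix protein fibulin-3, had 6797 against 0, and PXDN, the peroxidase that crosslinks collagen IV, 5858 against 2. Further down the order stood WWC1, ADGRF5, the desmosomal plaque protein DSP (3323 against 0), the ERBB ligand NRG1 (3228 against 2), ARNTL2, CHST15 and C4BPB (2788 against 2).

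Among genes on in MDA-MB-435 only, MMP3, the matrix protease stromelysin-1, came first with 28915 counts against 0, at least 8993-fold higher than in MDA-MB-231. HLA-DQB1, an MHC class II chain, followed with 4518 against 0, and QPRT, an enzyme of NAD synthesis, with 3693 against 1. SOX10 had 3031 against 0 and was at least 943-fold higher. IGFN1 had 2998 against 0. Others of the 15 with most counts were MTAP, GYPC, PARVB, TBX3, CDKN2A, ACP5, the integrin chain ITGA4 (1806 against 0), TM4SF18 and PADI3 (1674 against 0). Genes with very large folds but a few counts in the lower line were LCP1, the leukocyte actin bundler, with 5 against 18006 counts, and CD109, a surface protein that binds TGF-beta, with 10 against 15574. STC2, a secreted glycoprotein, had 15 against 10897 and was 678-fold higher in MDA-MB-435 (411 to 1211). FKBP10, a collagen chaperone of the endoplasmic reticulum, had 5 against 4497. The MHC class II genes and their regulator, looked up after the values of HLA-DQB1 were seen, were also higher in MDA-MB-435. HLA-DRA had 57 against 9512 counts and was 156-fold higher (120 to 206). The class II transactivator CIITA had 106 against 1072 and was 9.44-fold higher (7.72 to 11.6).

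The 2 groups of line-restricted genes were also read by their deposited Gene Ontology terms. Extracellular space was attached to 17.3% of the 364 annotated genes on in MDA-MB-231 only, to 9.30% of the 172 on in MDA-MB-435 only, and to 5.75% of all 14244 annotated genes compared. Inflammatory response was attached to 16 of the 364 (4.40%) and to 2 of the 172 (1.16%), against 1.56% of all. Nervous system development was attached to 8 of the 172 (4.65%), among them PAX3, NTRK3 and NRG2, and to 5 of the 364 (1.37%), against 1.78% of all. Plasma membrane proteins took 29.4% and 32.6% of the groups against 20.1%. The term melanosome was on 1 gene of each group, PRDX1 in MDA-MB-231 (0.27%) and DCT in MDA-MB-435 (0.58%), against 0.82% of all. These shares are descriptions and were not tested.

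The neural crest and melanocyte genes were mostly higher in MDA-MB-435, but TYR, TYRP1, MLANA and PMEL had at most 34 counts in either line. Of 39 listed melanocyte-lineage genes 30 were compared, of which 24 were over 2-fold higher in MDA-MB-435, 2 in MDA-MB-231 and 4 within 2-fold, with a median log2 fold of -4.13 against -0.01 for all genes. Beside SOX10, PAX3 had 0 counts in MDA-MB-231 and 1040 counts in MDA-MB-435, and the calcium-binding protein S100B 0 and 1055. GPNMB, a melanosomal glycoprotein, had 32 and 4507 counts and was 131-fold higher in MDA-MB-435 (93.0 to 192). DCT, the pigment enzyme dopachrome tautomerase, had 1 and 658. GPR143, a receptor of the melanosome membrane, had 4 and 585, and the neural crest cadherin CDH19 1 and 216. In the same library of MDA-MB-435 tyrosinase (TYR), the first enzyme of melanin synthesis, had 2 counts, MLANA 9, PMEL 13 and TYRP1 10, and in MDA-MB-231 these 4 had 0, 8, 34 and 3. MITF itself had 1585 counts in MDA-MB-231 and 1405 counts in MDA-MB-435, within 2-fold at 1.21-fold (1.13 to 1.30). Gene counts do not separate the promoters and isoforms of MITF. Checked against the melanoma label, SOX10, PAX3, S100B, MITF and DCT had 658 counts or more in MDA-MB-435, and TYR, MLANA, PMEL and TYRP1 had 13 or fewer.

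Epithelial genes were mostly higher in MDA-MB-231. Of 26 genes compared, 17 were over 2-fold higher in MDA-MB-231, 4 were higher in MDA-MB-435 and 5 within 2-fold, with a median log2 fold of 3.39. Keratin 19 (KRT19) had 3953 counts against 4. CDH1 had 837 against 0 and the adhesion molecule EPCAM 387 against 2. The keratins KRT8 and KRT7 were also on in MDA-MB-435 but lower there. KRT8 had 12813 against 522 counts, 26.3-fold higher in MDA-MB-231 (24.1 to 28.8), and KRT7 14488 against 625, 24.8-fold (22.9 to 27.0). KRT18, the filament partner of KRT8, had 8212 against 5740 and lay within 2-fold, as did KRT80 with 5558 against 5544 and the breast transcription factor GATA3 with 242 against 187. The transcription factor TFAP2C went the other way with 242 against 3549 counts, 13.7-fold higher in MDA-MB-435 (12.01 to 15.65). ESR1, the estrogen receptor, had 2 and 24 counts and the progesterone receptor PGR 1 and 0. GRHL2, an epithelial transcription factor, had 1 and 0. ERBB2 had 1318 against 698, a 2.02-fold difference (1.85 to 2.22). Checked against the breast label with 10 epithelial markers, EPCAM, CDH1, KRT8, KRT18, KRT19, KRT7 and GATA3 had at least 200 counts in MDA-MB-231, while ELF3 had 49, and ESRP1 and GRHL2 0 and 1. Other epithelial genes of the longer list were low there too, with KRT17 at 48, CLDN3 at 19, FOXA1 at 4, KRT14 at 3, and KRT5, ELF5 and OVOL1 at 0.

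Mesenchymal genes did not separate the lines as a group. Of 25 compared, 7 were over 2-fold higher in MDA-MB-231, 6 were higher in MDA-MB-435 and 12 within 2-fold, with a median log2 fold of -0.28. Vimentin (VIM) was abundant in both, with 38484 and 98483 counts and 2.39-fold more in MDA-MB-435 (2.36 to 2.42). The related repressors of E-cadherin were split. ZEB1 had 2038 counts in MDA-MB-231 and 0 counts in MDA-MB-435, while ZEB2 had 480 and 2523, 4.90-fold higher in MDA-MB-435 (4.45 to 5.42). Cadherins were split as well. CDH11 had 3366 counts in MDA-MB-231 and 25 counts in MDA-MB-435, and N-cadherin (CDH2) 45 and 3657, 75.8-fold higher in MDA-MB-435 (56.6 to 104). SPARC, a matrix glycoprotein, had 18 and 10330 counts, and the collagen crosslinker LOX 1973 and 24. AXL, CAV1 and CD44, markers of the basal and mesenchymal type of breast line, had 12648 counts or more in each line and differed by 2.37-fold, 1.76-fold and 1.24-fold. Of the same marker set, EGFR and KRT7 were higher in MDA-MB-231, with log2 folds of 7.54 and 4.63. KRT18 of that set lay within 2-fold, and VIM is given above.

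**Figure D2:**
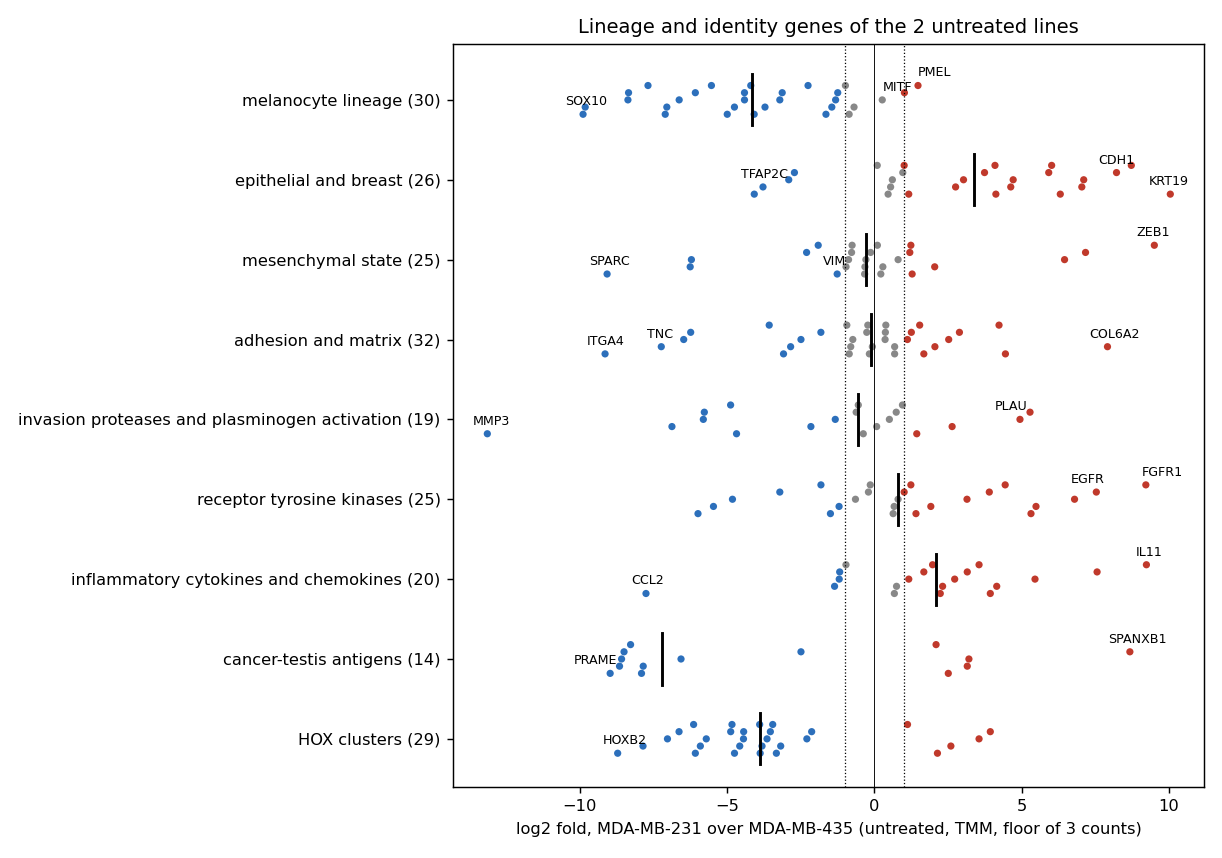
Log2 fold of each gene of 9 lists between the untreated lines (horizontal axis, MDA-MB-231 over MDA-MB-435), 1 point per gene and the number of genes compared in parentheses. The bars are list medians and the dotted lines mark 2-fold. Most melanocyte and HOX genes lie to the left, most epithelial genes to the right, and the mesenchymal and adhesion lists spread to both sides.

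The extracellular matrix and the proteases that cut it differed gene by gene. Tenascin C (TNC) had 331 counts in MDA-MB-231 and 53127 counts in MDA-MB-435, 150-fold higher in MDA-MB-435 (134 to 167). The laminin chain LAMA4 had 26 and 2462. Among the collagens COL6A2 had 677 against 0 and COL5A1 7095 against 347, while COL9A3 had 3 against 241. Integrin beta 1 (ITGB1) was within 2-fold at 43900 and 35776 counts, whereas ITGB3 had 209 and 1600. Over the 32 adhesion and matrix genes compared, 10 were over 2-fold higher in MDA-MB-231, 9 were higher in MDA-MB-435 and 13 within 2-fold. In the plasminogen system the urokinase gene PLAU had 7489 against 260 counts and was 30.9-fold higher in MDA-MB-231 (27.3 to 35.1). The protease inhibitor SERPINE2 had 198 against 24727 and was 117-fold higher in MDA-MB-435 (101 to 135). Beside MMP3, the matrix metalloproteases MMP1 (124 against 3389), MMP16 (67 against 2105), MMP17 (7 against 408) and MMP8 (2 against 179) were higher in MDA-MB-435. MMP14 had 4867 and 7580 counts, and MMP2 and MMP9 had at most 19 counts in either line. Of 19 proteases and inhibitors compared, 4 were over 2-fold higher in MDA-MB-231, 8 were higher in MDA-MB-435 and 7 within 2-fold. Beside both lists, the shares of all genes were 21.9%, 23.5% and 54.6%.

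The growth factor receptors gave each line its own set. EGFR had 12150 counts in MDA-MB-231 and 70 counts in MDA-MB-435, 186-fold higher in MDA-MB-231 (147 to 239). FGFR1 had 2226 and 4 and MERTK 312 and 0. ERBB3, the receptor of neuregulins, had 147 and 1451 counts, and the collagen receptor DDR2 79 and 2375, 28.1-fold higher in MDA-MB-435 (22.4 to 35.6). MET and IGF1R were within 2-fold. Of 25 receptor kinases compared, 12 were over 2-fold higher in MDA-MB-231 and 7 of the others in MDA-MB-435. Among all genes these shares were 21.9% and 23.5%. The median log2 fold of the receptor kinases was 0.81, and 1.43 between the CPYPP libraries. Cytokine genes were over 2-fold higher in MDA-MB-231 in 13 of 20 cases. Their median log2 fold of 2.11 was 0.97 among those with at least 100 counts and 1.27 between the CPYPP libraries. Examples were IL11 with 3382 against 6 counts and IL6 with 530 against 1. The chemokine CCL2 had 4 against 920. CXCL8 had 630 against 1520, 2.25-fold higher in MDA-MB-435 (2.05 to 2.47).

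Genes of the germ line and of body-axis patterning also differed. Cancer-testis antigens are normally restricted to germ cells and are switched on in many tumours. PRAME had 4 counts in MDA-MB-231 and 2137 counts in MDA-MB-435, MAGEC2 21 and 5365, and MAGEA1 0 and 1156. The near-identical copies MAGEA3 and MAGEA6, between which reads may be split, summed to 16 and 5833. SPANXB1, also of a multicopy family, had 1529 and 4. Of 14 such antigens compared, 9 were over 2-fold higher in MDA-MB-435 and 5 in MDA-MB-231, with a median log2 fold of -7.20. HOX genes set the position of cells along the body axis. Of 29 compared, 24 were over 2-fold higher in MDA-MB-435 and 5 in MDA-MB-231, and none lay within 2-fold, with a median log2 fold of -3.89. Beside the antigens and the HOX genes, the shares of all genes were 23.5% higher in MDA-MB-435, 21.9% in MDA-MB-231 and 54.6% within 2-fold. A gene with at least 10 counts in 1 line and at most 3 in the other could not lie within 2-fold. HOXB2 had 0 and 1343 counts and HOXC10 0 and 740, whereas HOXD3 had 43 and 1 and HOXA13 33 and 0.

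Most chaperone genes were within 2-fold between the untreated lines. All 19 chaperonin and prefoldin genes, whose complexes fold actin and tubulin among other proteins, were within 2-fold, with a median log2 fold of 0.01, against 54.6% of all genes. HSP40 co-chaperones (J-domain proteins that load clients onto HSP70) were within 2-fold in 31 of 38 cases, and HSP90 genes with their co-chaperones in 14 of 18. Chaperone genes have high counts, and among genes with at least 1000 counts the share past 2-fold was 28%. HSP90AB1 was the most abundant of these per length, with 1006 FPKM in MDA-MB-231 and 1140 FPKM in MDA-MB-435. HSPA8, the constitutive HSP70, had 59764 and 71001 counts (567 and 628 FPKM), 1.11-fold higher in MDA-MB-435 (1.10 to 1.12). HSPD1, the mitochondrial chaperonin, had 17639 and 31498. The 4 genes of the HSP90 list beyond 2-fold were all higher in MDA-MB-435 and were the kinase adaptor CDC37 (4660 and 10880), ST13, UNC45A and AHSA2P.

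HSP70 genes were over 2-fold higher in MDA-MB-231 in 7 of 14 cases and in MDA-MB-435 in 1, against 21.9% and 23.5% of all genes. Their median log2 fold was 0.87, and 0.07 among those with at least 100 counts. The inducible gene HSPA1B had 1181 counts in MDA-MB-231 and 294 counts in MDA-MB-435, while its near-identical copy HSPA1A had 522 and 593. Since reads may be assigned to either copy, their sum of 1703 and 887 was taken as well, 2.06-fold higher in untreated MDA-MB-231 (1.896 to 2.234). Between the CPYPP libraries the direction of the sum was turned, with 54773 counts in MDA-MB-231 and 77332 counts in MDA-MB-435, a log2 fold of -0.31. HSPA13 had 3661 and 904 counts, 4.34-fold higher in MDA-MB-231 (4.04 to 4.67), and HSPA4L 1815 and 622. HSPH1, an HSP110 nucleotide exchange factor, had 6580 and 12381, within 2-fold. HSPB1 (HSP27) had 1066 counts in MDA-MB-231 and 5827 counts in MDA-MB-435, 5.10-fold higher in MDA-MB-435 (4.78 to 5.45), and the lens and muscle chaperone CRYAB had 3 and 73. BAG2, a cofactor of HSP70, went the other way with 2340 and 451, 5.56-fold higher in MDA-MB-231 (5.03 to 6.16). BAG3 had 1999 and 2906. Of the 10 small heat shock and BAG genes compared, 2 were over 2-fold higher in MDA-MB-231 and 3 of the rest in MDA-MB-435. HSF1, the main transcription factor of the heat shock response, had 1414 and 3198 counts and was 2.11-fold higher in MDA-MB-435 (1.98 to 2.25), whereas HSF2 with 878 and 553 lay within 2-fold, 1 of 3 such genes among the 5 on the heat shock factor list.

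Endoplasmic reticulum chaperones were within 2-fold in 22 of 27 cases, against 54.6% of all genes. Of genes with at least 1000 counts, 28% were past 2-fold. HSPA5 (BiP) had 21511 and 14382 counts and CALR 27150 and 24099. The thiol oxidase ERO1A had 6113 and 2196, 2.98-fold higher in MDA-MB-231 (2.84 to 3.13), and HERPUD1, a membrane protein of ER-associated degradation, 696 and 2702, 3.62-fold higher in MDA-MB-435 (3.33 to 3.94). Of 25 genes of the unfolded protein and integrated stress responses, 5 were over 2-fold higher in each line and 15 within 2-fold. Here too the share of all genes within 2-fold was 54.6%. The sensor kinases EIF2AK1, EIF2AK2 (PKR), EIF2AK3 and EIF2AK4 each differed by 1.14-fold or less. ATF4, the central transcription factor of the integrated stress response, had 3441 and 6689 counts, 1.81-fold higher in MDA-MB-435 (1.74 to 1.89). Its known targets did not share 1 direction. PHGDH, the first enzyme of serine synthesis, had 16 and 1322 counts and NUPR1 27 and 927, while CHAC1 had 42 and 15, and 242 and 1054 between the CPYPP libraries. DDIT4, an inhibitor of mTORC1, had 1186 and 92, 13.8-fold higher in untreated MDA-MB-231 (11.2 to 17.3), but between the CPYPP libraries it had 1008 and 2066.

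**Figure D3:**
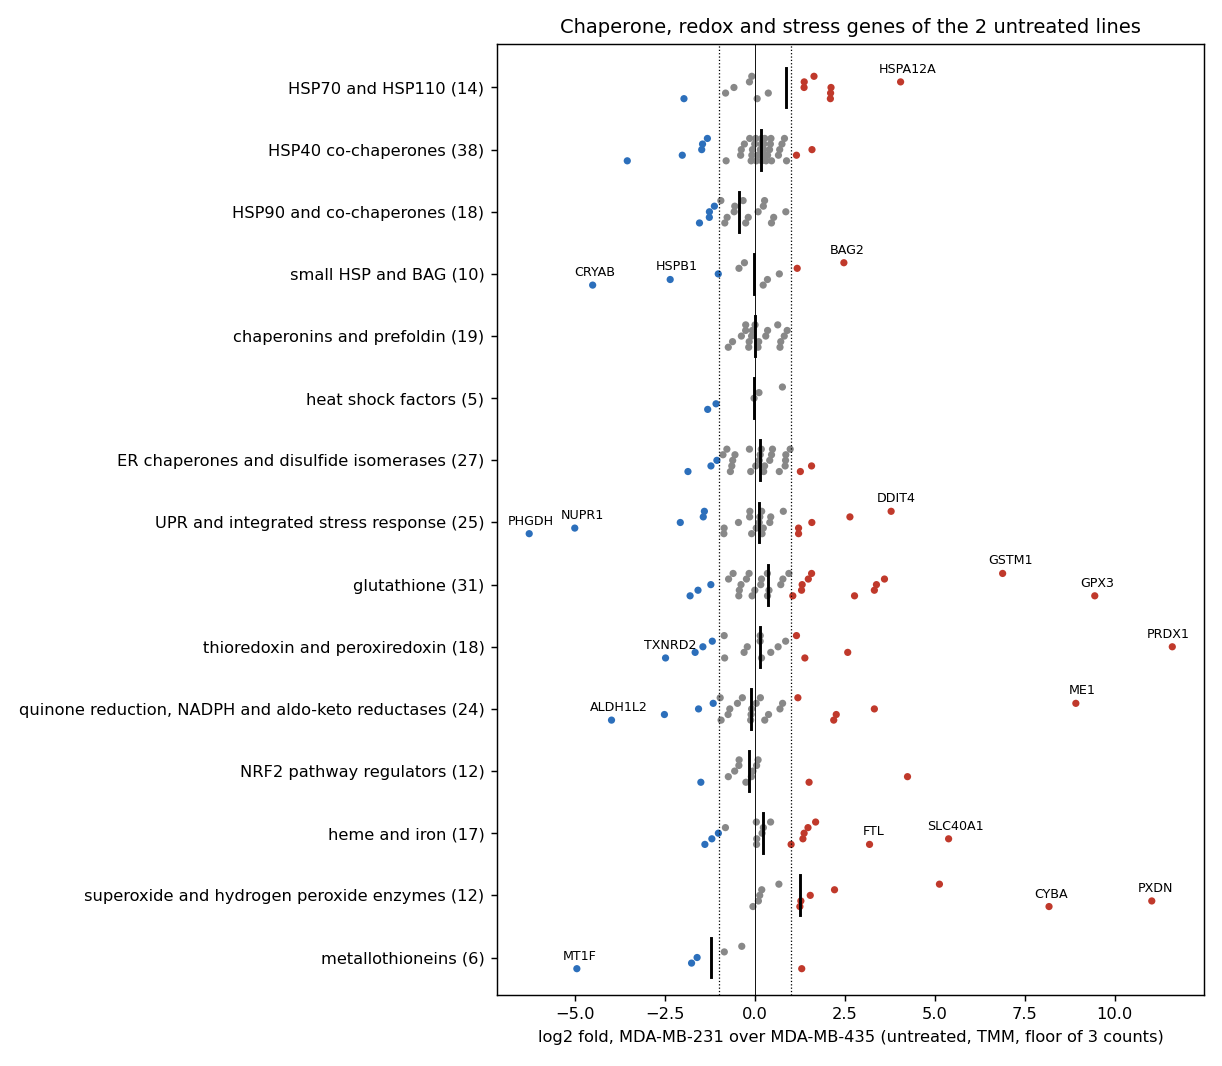
Log2 fold of each gene of 15 chaperone, stress and redox lists between the untreated lines (horizontal axis, MDA-MB-231 over MDA-MB-435), 1 point per gene and the number compared in parentheses. The bars are list medians and the dotted lines mark 2-fold. The 19 chaperonin and prefoldin genes lie inside the lines, and PRDX1, PXDN, GPX3 and ME1 lie far to the right.

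Peroxide and thiol systems held the largest single differences of the stress genes. PRDX1 was read at 238 FPKM in MDA-MB-231, where it was the most abundant peroxiredoxin gene per length, and not at all in MDA-MB-435, in which neither library held a read of it (8711 and 7879 counts in the MDA-MB-231 libraries). The other peroxiredoxins were present in both lines. PRDX5 had 1338 and 4526 counts, 3.16-fold higher in MDA-MB-435 (2.97 to 3.36), PRDX3 7686 and 3692, and PRDX2, PRDX4 and PRDX6 were within 2-fold. Of all 18 thioredoxin and peroxiredoxin genes, 4 were over 2-fold higher in each line and 10 within 2-fold, against 54.6% of all genes. Their median log2 fold was 0.15, and -0.13 between the CPYPP libraries. Summed over the peroxiredoxin family, the counts were 27191 and 16670, 1.75-fold higher in MDA-MB-231 (1.72 to 1.78). Thioredoxin (TXN) had 4872 and 4712 counts and its cytosolic reductase TXNRD1 24308 and 14383. The mitochondrial reductase TXNRD2 had 246 and 1471, 5.58-fold higher in MDA-MB-435 (4.87 to 6.41). TXNIP, which binds and inhibits thioredoxin, had 8408 and 1505, 5.99-fold higher in MDA-MB-231 (5.67 to 6.33).

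In the glutathione system 11 of 31 genes were over 2-fold higher in MDA-MB-231, 3 were higher in MDA-MB-435 and 17 within 2-fold. Over all genes compared, the shares were 21.9%, 23.5% and 54.6%. The cystine importer was higher in MDA-MB-231 in both chains, with SLC7A11 at 5380 against 845 counts, 6.82-fold (6.35 to 7.35), and SLC3A2 at 6427 against 2767, 2.49-fold (2.38 to 2.60). Between the CPYPP libraries SLC3A2 had 6776 and 10991 counts. The limiting enzyme of glutathione synthesis was split, since its regulatory subunit GCLM had 3619 against 1299 and its catalytic subunit GCLC 954 against 1553. The secreted peroxidase GPX3 had 1952 against 2 counts. GPX4, which reduces lipid peroxides, had 3282 and 1825, within 2-fold at 1.93-fold (1.82 to 2.04). The transferase GSTM1 had 331 against 0 and GSTM3 1969 against 211, with the caution that mu-class copies share sequence. GSTP1 was 2.33-fold higher in MDA-MB-435 (2.21 to 2.46), with 1880 against 4698. ME1, the cytosolic malic enzyme that makes NADPH, had 1356 against 2. Of the 24 genes of quinone reduction, NADPH supply and aldo-keto reduction, 15 were within 2-fold, against 54.6% of all genes.

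Of 12 listed regulators of the antioxidant response, 9 were within 2-fold, against 54.6% of all genes. NFE2L2 (NRF2) had 3765 and 3788 counts and its inhibitor KEAP1 1613 and 2547. The 3 past 2-fold were the repressor BACH2 with 53 and 0 counts, at least 18.9-fold higher in MDA-MB-231, the NRF2 relative NFE2L3 with 4889 and 1843, 2.84-fold higher in MDA-MB-231 (2.694 to 3.001), and the small MAF protein MAFF with 802 and 2429, 2.83-fold higher in MDA-MB-435 (2.61 to 3.06). The NRF2 target NQO1 had 4805 and 4252. HMOX1, the heme oxygenase, was low in both with 158 and 443, 2.62-fold higher in MDA-MB-435 (2.18 to 3.16). The ferritin chains were opposed, with the light chain FTL at 14290 and 1680 counts, 9.12-fold higher in MDA-MB-231 (8.67 to 9.60), and the heavy chain FTH1 at 5274 and 12927, 2.29-fold higher in MDA-MB-435 (2.22 to 2.36). Together they summed to 19564 and 14607. Both chains have many processed copies in the genome, and how reads shared with those copies were counted is not stated. The iron exporter SLC40A1 had 117 and 0. Of 17 heme and iron genes 7 were over 2-fold higher in MDA-MB-231, 3 were higher in MDA-MB-435 and 7 within 2-fold. The shares of all genes, here and for the lists that follow, were 21.9%, 23.5% and 54.6%. Of 12 superoxide and peroxide enzymes 7 were over 2-fold higher in MDA-MB-231 and none in MDA-MB-435, among them CYBA, a subunit of NADPH oxidases, with 809 against 0 and SOD2 with 5219 against 2303. Metallothionein MT2A, which binds zinc and copper, had 2312 and 7529, 3.04-fold higher in MDA-MB-435 (2.90 to 3.19), and 3 of 6 genes of the metallothionein list were over 2-fold higher there.

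The kinases that the study linked to stress transcription were within 2-fold. CDK7 had 1351 and 857 counts, 1.69-fold higher in MDA-MB-231 (1.55 to 1.84), and CDK9 1093 and 1942, 1.66-fold higher in MDA-MB-435 (1.54 to 1.79). POLR2A, which encodes Rpb1, the large subunit of RNA polymerase II, had 4054 and 9546, 2.197-fold higher in MDA-MB-435 (2.118 to 2.280). MNAT1, the assembly factor of CDK7, was 3.07-fold higher in MDA-MB-231 (2.74 to 3.45), and MEPCE, the capping enzyme of 7SK RNA, 3.09-fold higher in MDA-MB-435 (2.73 to 3.50). DOCK2, the Rac activator whose contact with Rac1 CPYPP blocks, had 649 and 134 counts, 5.19-fold higher in MDA-MB-231 (4.30 to 6.30). Of the other DOCK genes, DOCK10 had 190 and 5103, 25.1-fold higher in MDA-MB-435 (21.7 to 29.1). DOCK1 had 2141 and 1724, and the adaptor ELMO1 0 and 238. Within 2-fold were 13 of the 18 genes of transcription start and 9 of the 16 DOCK, ELMO and RAC genes. Cell-cycle genes were within 2-fold in 25 of 33 cases, with MKI67 at 17032 and 13789 counts. For all genes the share within 2-fold was 54.6%, and of genes with at least 1000 counts 28% were past 2-fold.

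The line-restricted genes were in places next to each other. PRDX1 lies on chr1:45510914-45542732 of GRCh38 on the minus strand, and its neighbours CCDC163 (34 and 0 counts) and MMACHC (264 and 0), the latter an enzyme of vitamin B12 handling that overlaps the end of PRDX1 on the other strand, were also without a read in both MDA-MB-435 libraries. The strand setting of the counting is not stated, so reads in the overlap cannot be told apart. The 3 genes span chr1:45493866-45542732, or 48.9 kb. The genes on either side were read in both lines, TESK2 with 82 and 65 counts and AKR1A1 with 603 and 496. A second and larger block lies on chromosome 9, where 8 neighbouring protein-coding genes from HACD4 to ELAVL2 (chr9:20999509-23826337) had at most 3 counts in each MDA-MB-231 library. Inside this span the processed pseudogene CLIC4P1 (chr9:22747700-22748234) had 16 and 15 counts in the 2 MDA-MB-231 libraries, and whether those reads came from its parent gene was not tested. Among the 8 genes KLHL9 had 0 counts in MDA-MB-231 and 767 counts in MDA-MB-435, and MTAP, an enzyme of methionine salvage, 1 and 2917. The cell-cycle inhibitor CDKN2A had 0 and 1894 and its neighbour CDKN2B 0 and 360. HACD4, IFNE and DMRTA1 were low in untreated MDA-MB-435 too, with 10, 14 and 65 counts there. FOCAD, next to the block, had 67 and 623. Runs of at least 3 neighbouring protein-coding genes on in MDA-MB-435 only were HOXC13 to HOXC10, HLA-DRB1 to HLA-DQB1 and MTAP to CDKN2B. For MDA-MB-231 the only such run was ZNF595 to ZNF141, so the PRDX1 block was not among them. A looser rule, chosen after these values were seen, took neighbours with at most 3 counts in both libraries of 1 line. By it, runs of at least 3 numbered 11 in MDA-MB-231 (45 genes) and 9 in MDA-MB-435 (28 genes). The protein-coding genes compared numbered 13602, and run members were among them only through their reads in the other line. How many runs would arise without any link between neighbours was not tested. The runs also held HOXC13, HOXC11 and HOXC10, 4 MHC class II genes, and gene clusters such as MYH13, MYH8, MYH4 and MYH1 or CST4, CST1 and CST2. DNA was not measured, so a lost gene and a silent gene cannot be told apart.

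**Figure D4:**
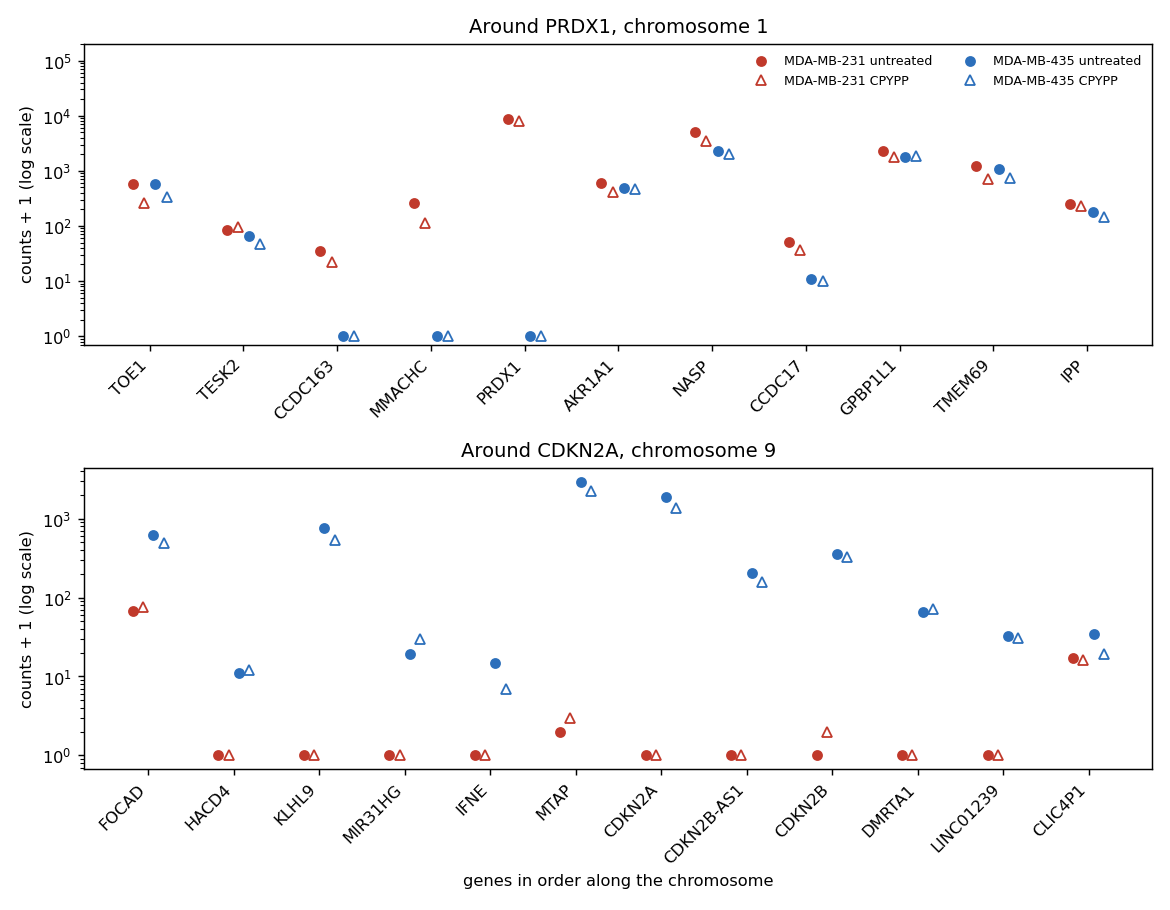
Counts + 1 (log scale) of neighbouring genes in chromosome order around PRDX1 and around CDKN2A, in the 4 libraries. Red marks MDA-MB-231, blue MDA-MB-435, circles the untreated and triangles the CPYPP libraries. CCDC163, MMACHC and PRDX1 lie at 0 counts in both MDA-MB-435 libraries, and the genes from HACD4 to LINC01239 at 0 to 2 counts in both MDA-MB-231 libraries, while the pseudogene CLIC4P1 lies above 10 in all 4.

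Whole chromosomes leaned less. Over genes with at least 100 counts the median log2 fold ran from -0.92 on chromosome 22 (285 genes) to 0.64 on chromosome 14 (390 genes), with 0.56 on chromosome 10 and -0.49 on chromosome 16. Between the CPYPP libraries these 4 medians were -0.98, 0.50, 0.40 and -0.57. SOX10 lies on chromosome 22, and PARVB does too.

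**Figure D5:**
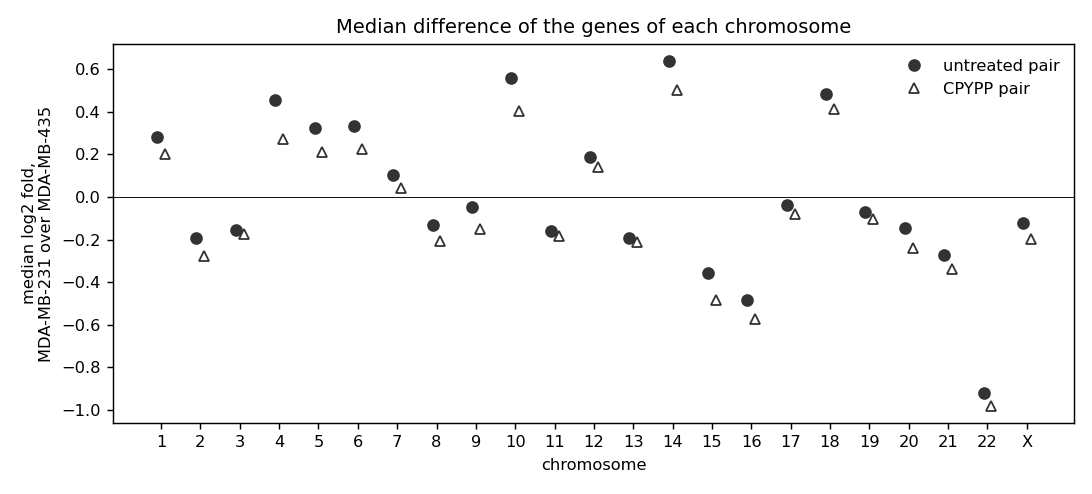
Median log2 fold (vertical axis, MDA-MB-231 over MDA-MB-435) of the genes of each chromosome with at least 100 counts in 1 of the 2 untreated libraries. Circles give the untreated pair and triangles the CPYPP pair. Chromosome 22 is lowest in both pairs and chromosome 14 highest.

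Promoter sequence was looked at for the line-restricted genes, using the RefSeq windows of GRCh38.p14 from 250 bases before to 50 after the gene start. Windows were found for 275 of the 362 coding genes on in MDA-MB-231 only and for 126 of the 171 on in MDA-MB-435 only. The AP-1 site TGACTCA, read on both strands, was in 2.91% and 3.17% of them, against 3.19% of the coding genes compared. The SOX site ACAATGG was in 2 of the 275 (0.727%) and 5 of the 126 (3.97%), against 1.82% of the coding genes compared and 3.15% of all 27305 promoters of the table. The MITF-type M-box TCATGTG was in 2.18% and 3.17%, against 1.68% of the coding genes compared and 2.99% of all promoters. The TEAD site GGAATG was in 12.4% and 11.9%, against 10.9% of the coding genes compared, and the E-box CACGTG in 6.55% and 10.3%, against 9.84%. The antioxidant response core TGACNNNGC, which can overlap the AP-1 site, was in 9.45% and 13.5%, against 14.9%, and the heat shock core GAANNTTC in 5.09% and 7.94%, against 4.87%. Over all promoters the AP-1 site was in 4.92%, TEAD in 14%, the E-box in 7.43%, the antioxidant core in 13.6% and the heat shock core in 6.87%. The differences of the line-restricted genes rest on a few genes each. A match is a description of letters and not a binding site.

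Promoters are printed for 1 gene of each block described above, MMACHC and MTAP, and for ME1, an NADPH-making enzyme on in MDA-MB-231 only. PRDX1 had no entry in the table. The AP-1 letters of MMACHC and ME1 are not typical, since 8 of the 275 windows of genes on in MDA-MB-231 only held them (2.91%). That share was 3.17% for genes on in MDA-MB-435 only and 3.19% for the coding genes compared. Each run is the 250 bases before the gene start, 5′ to 3′ on the gene's strand. Capitals mark the AP-1 letters in MMACHC (chr1:45500050-45500299, plus strand) and ME1 (chr6:83431052-83431301, minus strand), and MTAP (chr9:21802386-21802635, plus strand) has no capitals because the AP-1 letters were looked for on both strands and had 0 matches.
MMACHC: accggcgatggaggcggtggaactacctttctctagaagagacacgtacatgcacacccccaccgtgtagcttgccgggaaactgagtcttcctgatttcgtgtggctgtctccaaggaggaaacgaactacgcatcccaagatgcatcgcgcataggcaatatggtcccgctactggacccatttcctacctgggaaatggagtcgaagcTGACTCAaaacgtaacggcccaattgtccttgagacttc
MTAP: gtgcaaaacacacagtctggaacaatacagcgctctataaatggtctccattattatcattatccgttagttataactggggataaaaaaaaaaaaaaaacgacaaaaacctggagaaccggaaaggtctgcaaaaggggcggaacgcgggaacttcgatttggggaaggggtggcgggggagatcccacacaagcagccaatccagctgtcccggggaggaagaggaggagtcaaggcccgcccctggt
ME1: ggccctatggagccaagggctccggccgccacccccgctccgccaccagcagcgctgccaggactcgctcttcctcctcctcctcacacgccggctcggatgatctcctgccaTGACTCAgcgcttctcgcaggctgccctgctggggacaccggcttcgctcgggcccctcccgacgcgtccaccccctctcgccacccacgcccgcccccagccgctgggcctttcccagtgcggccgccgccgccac

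Of the 5 genes on in MDA-MB-435 only with the SOX letters, 4 hold them before the gene start and are printed because SOX10 itself was on in MDA-MB-435 only. VAV3, a guanine nucleotide exchange factor, had 0 and 239 counts (chr1:107688500-107688749), the synaptic vesicle protein SV2A 0 and 898 (chr1:149906992-149907241), CCDC141 0 and 478 (chr2:179050138-179050387) and NDRG2 2 and 492 (chr14:21026311-21026560). All lie on the minus strand, and capitals mark the SOX letters or their reverse complement. Whether SOX10 binds there was not tested.
VAV3: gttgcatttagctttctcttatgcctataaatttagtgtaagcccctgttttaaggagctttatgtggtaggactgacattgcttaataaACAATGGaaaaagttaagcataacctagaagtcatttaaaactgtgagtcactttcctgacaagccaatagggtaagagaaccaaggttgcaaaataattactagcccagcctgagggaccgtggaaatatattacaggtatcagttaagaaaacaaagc
SV2A: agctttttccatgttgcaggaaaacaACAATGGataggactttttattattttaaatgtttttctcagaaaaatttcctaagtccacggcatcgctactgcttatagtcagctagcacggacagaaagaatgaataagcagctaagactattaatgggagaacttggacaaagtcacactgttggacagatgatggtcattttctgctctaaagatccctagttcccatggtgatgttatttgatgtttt
CCDC141: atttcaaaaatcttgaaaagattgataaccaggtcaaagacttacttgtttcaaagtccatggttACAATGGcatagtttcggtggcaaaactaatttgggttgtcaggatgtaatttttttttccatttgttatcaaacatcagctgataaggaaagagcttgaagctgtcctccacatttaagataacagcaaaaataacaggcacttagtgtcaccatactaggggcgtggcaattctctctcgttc
NDRG2: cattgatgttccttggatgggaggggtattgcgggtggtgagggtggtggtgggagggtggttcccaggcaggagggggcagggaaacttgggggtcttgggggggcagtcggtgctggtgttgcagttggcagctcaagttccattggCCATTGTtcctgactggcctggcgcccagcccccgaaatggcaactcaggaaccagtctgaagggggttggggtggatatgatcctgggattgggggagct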

How the data were processed

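The authors deposited raw read counts per gene for 4 libraries, with gene positions, exon lengths and Gene Ontology terms. The submitters' processing notes list cutadapt 1.9.1, HISAT2 2.2.1, HTSeq 0.6.1, DESeq2 and GRCh37.p13, and the strand setting is not given in the sources used here. The positions in the deposited count table overlapped those of GENCODE v29, which is on GRCh38, for 58241 of the 58254 shared identifiers, and are printed as GRCh38.

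Scaling factors came from edgeR 4.0.16 and, as an alternative, DESeq2 1.42.0, both under R 4.3.3, and all else was computed in Python 3.11.15. Folds used TMM effective library sizes of the 2 untreated libraries (factors 0.972 and 1.03) and a floor of 3 counts, and intervals were exact Clopper-Pearson intervals at 95%. A gene was compared where either library held 10 counts or more. The steps were tested on simulated data. No test between the lines was made, since each has 1 library. FPKM was computed here from the counts and deposited exon lengths.

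Named genes were members of 28 lists, the 15 protein-coding genes with the largest folds each way (at least 200 counts), and the 15 with most counts among those on in 1 line only. Others are said to be chosen after their values were seen, or stand in the promoter, neighbour and GO results. The comparison and the lists were chosen with earlier results of these data known. Alternatives were other scalings, count filters, fold and on/off thresholds, protein-coding genes alone and the CPYPP pair. Some items are not reported here.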

Additional observations from a re-analysis of the deposited data

How the results depend on the processing

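No paired analysis was possible because each line has 1 untreated library and the labels give no replicate numbers. The counts of genes past 2-fold (3996 and 4292) stayed within 1.5 times under library totals, DESeq2 size factors, upper-quartile scaling, no filter, a prior count of 0.5, the counting interval and the CPYPP pair. They were 2179 and 2141 with at least 100 counts, 2123 and 2083 at 4-fold, and with protein-coding genes alone 2901 and 2566, the last being outside that range; each of these settings keeps fewer genes by construction. The counts of genes on in MDA-MB-231 only and MDA-MB-435 only were 267 and 138 with off at 0 counts, 719 and 532 with on from 30 counts, and 208 and 102 with on from 300 counts. Other scalings moved each log2 fold by at most 0.08. Of the 198 named genes with folds, 3 that were over 2-fold higher in untreated MDA-MB-231 changed sign between the CPYPP libraries, where the log2 fold was -1.94 for CHAC1, -0.85 for DDIT4 and -0.51 for SLC3A2. In a comparison added after the data were seen, the sum of HSPA1A and HSPA1B did so too, at -0.31. Of the 28 list medians, 20 moved between the CPYPP libraries by more than the median half-width of their members' counting intervals. With at least 100 counts 8 did so. That half-width belongs to single genes and is not the error of a list median. The treatment differs between the pairs by construction.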
